A study of Mus musculus with 32 samples.

Results

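IKZF1 (Ikaros) binding in mouse pre-B cells was compared before and 2h after nuclear induction of the protein, in 4 lists of ChIP-seq peaks. All 4 libraries came from B3 cells, a mouse pre-B line of lymphoma origin, transduced with a retrovirus carrying HA-tagged Ikaros fused to the ERt2 ligand-binding domain, and an antibody against the HA tag was used. The group called 0h (2 replicates) received no treatment, and the group called 2h (2 replicates) received 500 nM of 4-hydroxytamoxifen (4-OHT), the ligand that moves the fusion protein into the nucleus, for 2h. Both groups carry the fusion protein, so signal at 0h may hold binding of the uninduced protein as well as background of the antibody, and these cannot be told apart here. IKZF1 peaks after 30m and 1h in the same ligand, and peaks of CHD4 and of the histone mark H3K27ac at 0h, 30m, 1h and 2h (2 replicates each), served as readouts that did not define the regions.

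IKZF1 is a zinc finger transcription factor of lymphocytes. It binds short sequences built around GGAA or GGGA, often as a dimer, and associates with the NuRD complex, in which CHD4 is the nucleosome-remodelling ATPase. In pre-B cells it is known for restraining proliferation driven by the pre-B cell receptor and by the IL-7 receptor, and for silencing genes of the surrogate light chain. H3K27ac marks active promoters and enhancers.

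Peaks that overlapped by at least 1 bp in the 4 lists were merged into 20964 regions. A region was called gained when both 2h libraries and neither 0h library had a peak in it, lost when both 0h libraries and neither 2h library had one, and kept when all 4 had one. These rules took in 7807 regions: 2945 were gained (14% of the merged regions), 890 were lost (4.25%) and 3972 were kept (18.9%). The other 13157 regions had calls that were split between replicates. The classes were defined by the calls themselves, so their sizes are a description, and with 2 libraries against 2 an exact two-sided permutation test of a single value cannot go below p = 0.333.

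The balance of gain and loss depended on the length of the lists. The 0h lists held 7822 and 9527 peaks, and the 2h lists held 14225 and 14179. When each list was reduced to its 7822 peaks with the highest significance, 1203 regions were gained, 1471 were lost and 2569 were kept, so that losses outnumbered gains. With 1 library left out, the rule asks for a call in 1 library in place of 2 at that time, so the counts of a class can rise by construction: gained regions numbered 6836 without 2h replicate 1 and 7195 without 2h replicate 2, and lost regions numbered 2132 without 0h replicate 1, 1498 without 0h replicate 2 and 1496 without 2h replicate 2. The 0h lists were called at a typical background of 3.4 and 2.70 fragments, and the 2h lists at 2.85 and 2.12, as recovered from the deposited fold and p columns. The part of this difference in the classes was not tested. The pre-B character of the cells, though not the line itself, was checked on H3K27ac at 0h. Of 11 pre-B marker genes, 10 had a peak within 1 kb of a transcription start site (TSS) in both libraries (not Rag1). Of 19 markers of other cell types 2 did (Zap70 and Klf1), beside 44.4% of all protein-coding genes.

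**Figure D1:**
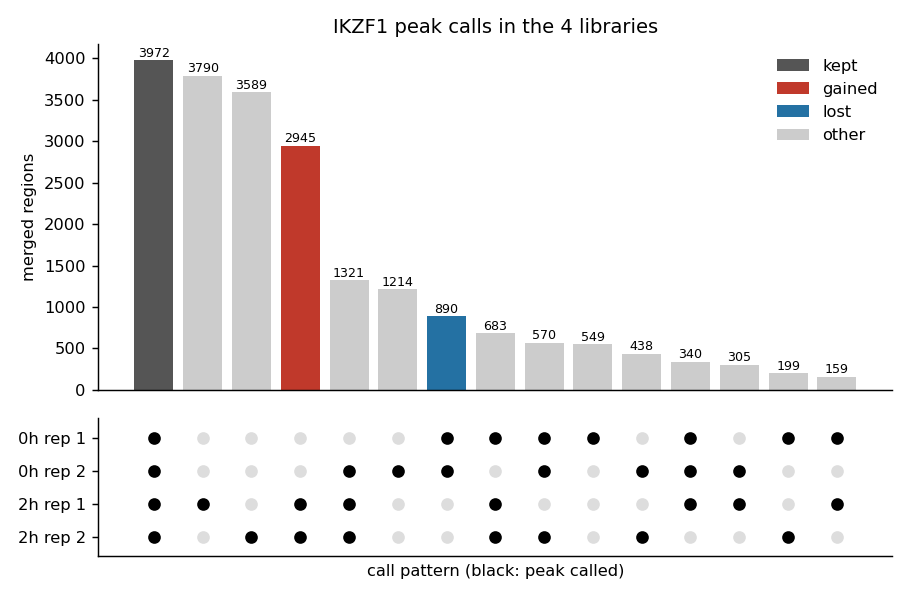
Number of merged regions (bars) for each combination of peak calls in the 4 IKZF1 libraries (black dots below). Kept regions (3972) were the most frequent pattern, and regions called in 1 of the 2h libraries alone (3790 and 3589) each outnumbered the 2945 gained regions.

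Many regions fell just outside the rule. Peaks called in only 1 of the 2h libraries numbered 3790 for replicate 1 and 3589 for replicate 2, with median fold enrichments of 3.73 and 4.16. Fold enrichment here is the height of a peak over its local background, each raised by 1, as the peak caller computes it. The gained regions as a whole had medians of 4.20 and 4.75 in the 2h libraries. Regions called in only 1 of the 0h libraries numbered 549 and 1214, with medians of 3.88 and 4.47, and lost regions had 4.96 and 5.87. Kept regions had medians of 5.39 and 6.19 at 0h and 5.18 and 5.86 at 2h.

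The windows below show the bases under the summits of the highest-ranked gained, lost and kept regions whose window lay outside annotated exons, to let the core words counted further on be seen in place. Each holds the summit in replicate 2 and 50 bases on both sides, on the plus strand of mm10, and capitals mark the core words, which are GGAA and GGGA on either strand. Gained regions are shown at the 2h summit and lost regions at the 0h summit, each named after the protein-coding gene with the nearest TSS.
Cdk1, gained, chr10:69353024-69353124: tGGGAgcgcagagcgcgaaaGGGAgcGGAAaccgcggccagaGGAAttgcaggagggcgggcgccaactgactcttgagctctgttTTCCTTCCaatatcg
Bcl2l11, gained, chr2:128204137-128204237: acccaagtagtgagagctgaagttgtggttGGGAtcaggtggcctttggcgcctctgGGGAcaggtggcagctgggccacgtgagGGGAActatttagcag
Snx6, gained, chr12:54738118-54738218: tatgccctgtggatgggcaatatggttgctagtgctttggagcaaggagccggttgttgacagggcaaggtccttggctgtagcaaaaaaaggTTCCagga
Tnfrsf8, lost, chr4:145367454-145367554: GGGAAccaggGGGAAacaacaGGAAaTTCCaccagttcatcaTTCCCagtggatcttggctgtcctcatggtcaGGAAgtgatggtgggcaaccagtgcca
Rpl3, lost, chr15:80050124-80050224: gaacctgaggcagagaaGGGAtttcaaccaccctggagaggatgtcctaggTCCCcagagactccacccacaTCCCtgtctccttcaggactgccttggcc
Colgalt2, lost, chr1:152461953-152462053: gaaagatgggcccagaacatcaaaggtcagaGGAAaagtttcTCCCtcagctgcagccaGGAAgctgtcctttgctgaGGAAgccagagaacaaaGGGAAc

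These windows held 6, 4 and 1 core words in the gained regions and 9, 3 and 6 in the lost regions, counting overlapping words. The ranges of these few windows overlapped.

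For the strongest kept regions the same window is shown at the 0h and at the 2h summit of replicate 2. Near the promoter of Pa2g4, which encodes a regulator of ribosome production and growth, the summits lay 4 bp apart and both windows held 10 core words.
Pa2g4, kept, 0h, chr10:128566118-128566218: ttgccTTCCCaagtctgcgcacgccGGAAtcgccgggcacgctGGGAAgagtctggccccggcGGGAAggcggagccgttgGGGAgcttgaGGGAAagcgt
Pa2g4, kept, 2h, chr10:128566122-128566222: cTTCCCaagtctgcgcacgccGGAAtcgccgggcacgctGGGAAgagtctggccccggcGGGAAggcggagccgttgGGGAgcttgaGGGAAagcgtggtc
Cpped1, kept, 0h, chr16:11686460-11686560: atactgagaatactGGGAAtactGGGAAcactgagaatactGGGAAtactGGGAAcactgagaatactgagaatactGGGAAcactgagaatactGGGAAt
Cpped1, kept, 2h, chr16:11687586-11687686: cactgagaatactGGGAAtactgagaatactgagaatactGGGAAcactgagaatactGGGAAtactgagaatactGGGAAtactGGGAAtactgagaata
The region assigned to Cpped1 lay in an intron 222886 bp from that gene's TSS and consisted of a tandem repeat, with 12 and 10 core words in the windows at its 0h and 2h summits. It had a CHD4 peak in all 8 CHD4 libraries and an H3K27ac peak in 0 of 8.

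Core words were concentrated under the summits of lost and kept regions and much less under those of gained regions. Words were counted within 50 bp of the summit and compared with windows 400 to 500 bp away on both sides. Lost regions carried 4.38 and 4.48 core words per 100 bp at the 0h summits of replicates 1 and 2, against 2.27 and 2.28 in their flanks. Gained regions carried 2.67 and 2.78 at the 2h summits, against 2.12 and 2.15 in their flanks. The excess over flanks was therefore 2.11 and 2.2 words per 100 bp in lost regions and 0.55 and 0.63 in gained regions. The ranges of the replicates did not overlap. Control words, the bases of GGAA and GGGA in other orders on either strand, also had a larger excess in lost regions (0.79 and 0.84) than in gained regions (0.25 and 0.31). Their mix of G and A is not quite that of the core words. Some also overlap core words, as AGGA and GAAG overlap GGAA in AGGAAG, so they are not an independent control.

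The kept regions allowed the same comparison within 1 set of regions. Their excess of core words was 1.86 and 1.96 per 100 bp at the 0h summits and 1.03 and 1.24 at the 2h summits. Both 0h values lay above both 2h values. The control words had an excess of 0.64 and 0.65 at the 0h summits and of 0.38 and 0.42 at the 2h summits. G and C made up 57.8% and 56.7% of the bases at the 0h summits and 56.9% and 56.8% at the 2h summits.

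**Figure D2:**
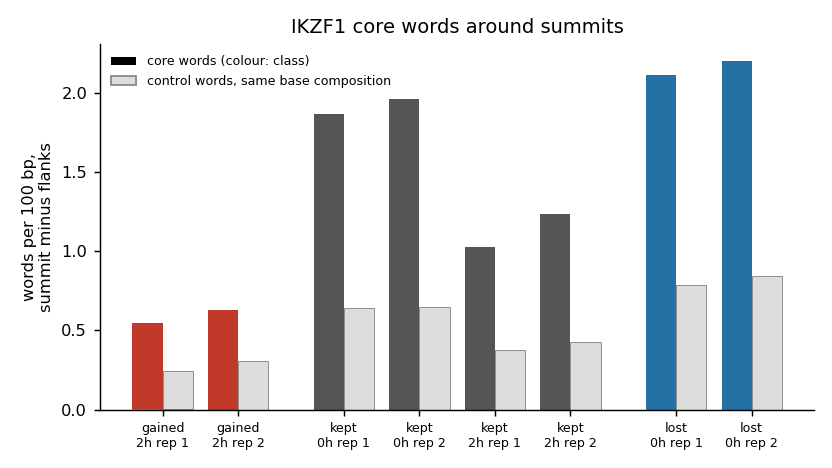
Core words per 100 bp within 50 bp of the summit minus flanks (coloured bars) and control words, which are the bases of the core words in other orders (grey bars), per class and library. Gained regions at 2h reached 0.55 and 0.63, kept regions 1.03 and 1.24 at 2h and 1.86 and 1.96 at 0h, and lost regions 2.11 and 2.2 at 0h.

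A longer IKZF1 word showed the same order. TGGGAA on either strand occurred in 23.8% and 23.3% of the lost windows, against 10% and 10.7% of their flanks. It occurred in 9.78% and 9.61% of the gained windows, against 7.88% and 7.59% of their flanks. In kept windows the shares were 20.8% and 20.6% at the 0h summits and 15% and 15.9% at the 2h summits. Much of this contrast was shared by all merged regions called in the same libraries: TGGGAA occurred in 20.5% and 20.2% of those called in the 0h libraries and in 12.2% and 12.5% of those called in the 2h libraries. Lost windows were thus a few percentage points above all 0h windows, and gained windows below all 2h windows. These longer words were chosen after the data were seen.

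Lost windows held the word more often than gained windows in distal and in promoter regions alike. Among distal regions TGGGAA occurred in 24% and 24% of the lost windows and in 10.8% and 9.99% of the gained windows. Among promoter regions it occurred in 23% and 20.1% of the lost windows and in 8.77% and 9.24% of the gained windows, and kept promoters at the 0h summits had 20.9% and 21.3%, which overlapped the lost promoters. The word AGGAAG, the core of ETS-family sites that overlaps GGAA, occurred in 33% and 38.7% of the lost windows and in 16.2% and 19.1% of the gained windows, beside 26.7% and 30.5% of all regions called in the 0h libraries and 18.3% and 21.6% of those called in the 2h libraries. TGTGGT, bound by RUNX factors, was closer between the classes, with 12.1% and 16.1% in lost and 8.93% and 11.9% in gained windows, beside 9.05% and 11.3% of all regions called in the 0h libraries and 8.21% and 10.7% of those called in the 2h libraries. The E box CAGCTG, bound by basic helix-loop-helix factors, also differed, with 14.3% and 15.2% in lost and 7.84% and 9.10% in gained windows, beside 11% and 10.4% of all regions called in the 0h libraries and 7.95% and 9.30% of those called in the 2h libraries.

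TGGGAA also lay nearer to the 0h summits within kept regions. Of the 3972 kept regions, 3029 held the word. Its median distance from the summit was 134 and 135 bp at 0h and 179 and 172 bp at 2h. It was nearer to both 0h summits than to either 2h summit in 808 regions, and nearer to both 2h summits in 466.

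Lost regions were mostly distal, and gained and kept regions were split evenly between promoters and distal sites. A promoter region had the summit of its highest-ranked library within 1 kb of an annotated TSS of any gene type. Distal regions made up 80.4% of the lost class, with a 95% Wilson interval of 77.7% to 82.9%, 49.3% of the gained class (47.5% to 51.1%) and 49.9% of the kept class (48.4% to 51.5%). Over all merged regions the share was 55.5%. These intervals cover counting error only. The median distance to a TSS was 6230 bp in lost, 950 bp in gained and 999 bp in kept regions. With the promoter limit at 3 kb the distal shares were 64.3%, 35.7% and 38.1% in lost, gained and kept regions, in the same order. Introns held 48.7% of lost, 42.9% of gained and 38.8% of kept summits, beside 43.3% over all merged regions.

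The 10 highest-ranked gained regions, chosen by the lower of their fold ranks in the 2h lists, included 6 promoters. The strongest covered the start of Kti12, a gene linked to tRNA modification, with a fold of 9.61 and 12.2 in the 2h libraries. The promoter of Cdk1, the kinase that drives entry into mitosis, had folds of 7.79 and 12.2. It was also called in all 4 IKZF1 libraries at 30m and 1h. The promoter of Lin52, a subunit of the DREAM cell-cycle complex, had folds of 7.1 and 8.41. The promoters of Endou and of Mgea5, the enzyme that removes O-GlcNAc from proteins, had folds of 7.0 and 11.2 and of 6.74 and 10.6.

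The sixth was assigned to Snx6, a sorting nexin whose own TSS was 22315 bp away, and lay 454 bp from the TSS of Gm22317. It had folds of 7.24 and 10.7. The other 4 were distal. A region 75911 bp from the TSS of Bcl2l11, which encodes the pro-apoptotic protein BIM, lay at chr2:128203362-128204580 in an intron and had folds of 8.05 and 9.13. Regions near Pstpip1, Aes and Rere, the last pair encoding corepressors, had folds between 6.75 and 8.96. Of the 10 regions, 8 had an H3K27ac peak in all 8 libraries, and those near Aes and Rere had one in 1 and 0 libraries.

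Of the 10 highest-ranked lost regions, 9 were distal. The strongest lay 52340 bp from the TSS of Tnfrsf8, which encodes the receptor CD30, at chr4:145367033-145367954, with folds of 23.9 and 36.2 in the 0h libraries. The next lay 30307 bp from Rpl3, a ribosomal protein gene, with folds of 18.9 and 26.4. An intronic region 62173 bp from the TSS of Colgalt2, a collagen-modifying enzyme, had folds of 17.2 and 21.7. The 1 promoter among them was that of Hmga1b, an architectural chromatin protein, with folds of 15.9 and 14. Loss at 2h was not loss at every earlier time: of these 10, only the region assigned to Ccdc138 had no peak at 30m and 1h, and the region assigned to Rnf169 was called in all 4 of those libraries.

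The 10 highest-ranked kept regions were assigned to Pa2g4, Cpped1, Trmt1, Dusp2, Rcc2, Scaf8, Atad2, Ttc9c, Vcl and Rac2. Those of Cpped1, Scaf8 and Rcc2 lay 222886, 30844 and 16190 bp from the TSS of that gene. The Scaf8 region lay 46 bp from the TSS of Pisd-ps2. All 10 regions were called in the 4 IKZF1 libraries at 30m and 1h. The Pa2g4 promoter had folds of 43.7 and 45.9 at 0h and of 11.4 and 15.0 at 2h. The promoter of Dusp2, a nuclear phosphatase of MAP kinases, had folds of 16.8 and 23.9 at 0h and of 11.5 and 15.1 at 2h. The promoter of Vcl, which encodes the adhesion protein vinculin, went from 16.9 and 32.3 to 9.20 and 13.1. In each of these 3 regions both 0h values lay above both 2h values. These folds are not centred, and how often this pattern held over all kept regions was not counted. In the test of fold below, the regions at Dusp2 and Vcl were not called.

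Fold enrichment in kept regions asked whether binding strength changed where a peak was present throughout. It was compared on the log2 scale, each library centred on its median over kept regions, with limma and Benjamini-Hochberg adjustment over all 3972. Of these, 12 rose (0.302%) and 128 fell (3.22%). All 128 that fell lay among the 993 kept regions with the highest 0h fold, where the median fold was 9.59 at 0h and 6.15 at 2h. All 12 that rose lay among the 993 with the lowest, with medians of 4.17 and 5.14. The ordering used 0h values of the comparison itself, so it is a description.

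The falls had a median of -1.38 on the log2 scale, from a median fold of 13.1 and 15.9 at 0h to 4.54 and 5.44 at 2h. Of the 128, 85 were distal. These calls depended on the scaling: with quantile normalization 0 regions passed and, at an unadjusted p below 0.05, 318 were higher and 387 lower. With 1 library left out, 1 residual degree of freedom remains, and the lone library is assumed to vary like the other group. Without 0h replicate 1, 0 passed (224 higher and 404 lower at an unadjusted p below 0.05), and without 0h replicate 2, 0 passed (188 and 342). Without 2h replicate 1, 38 rose and 133 fell, and without 2h replicate 2, 13 rose and 122 fell. With summit pileups recovered from the deposited columns, and no pseudocount, 333 rose and 513 fell. With a replicate block 86 rose and 284 fell, and among the 3036 regions with exactly 1 peak in each library 6 rose and 57 fell.

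**Figure D3:**
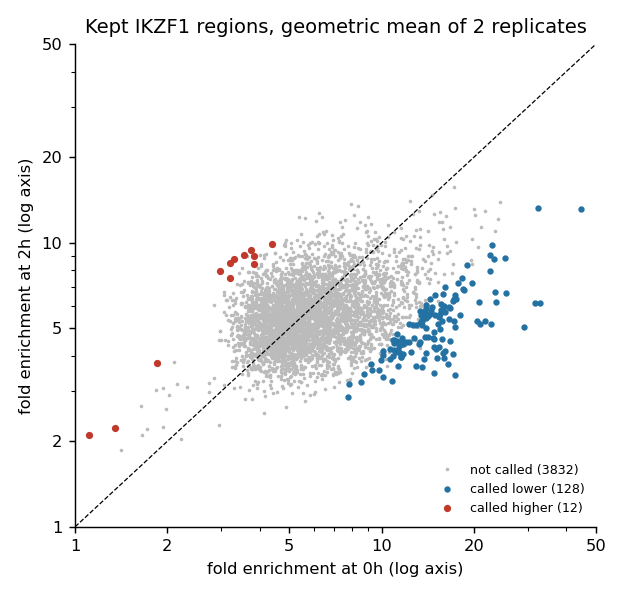
Fold enrichment of the 3972 kept regions at 0h and at 2h, as geometric means of 2 replicates on logarithmic axes, with the line of equality. The 128 regions called lower at 2h lie at the high end of the 0h axis, and the 12 called higher lie at the low end.

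The 5 largest rises lay near Il12a and at the promoters of Myl12b, Hirip3, Cd79b and C87436. The promoter of Cd79b, the signalling chain of the B cell receptor, had folds of 3.48 and 3.62 at 0h and of 8.87 and 9.28 at 2h. This was a rise of 1.42 ± 0.30 on the log2 scale (SE; limma adjusted p = 0.0271). The region had a CHD4 peak and an H3K27ac peak in all 8 libraries of each.

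The 5 largest falls were assigned to Anapc15-ps, Cmc1, Srl, Mgat5 and Timeless, by 2.07 to 2.46 on the log2 scale. The promoter of Timeless, which encodes a replication fork protein, had folds of 16.4 and 16.6 at 0h and of 3.64 and 3.84 at 2h (limma adjusted p = 0.0058). The promoter of Cmc1 had folds of 28.0 and 38.7 at 0h and of 4.62 and 8.15 at 2h.

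The order of kept regions by fold was shared between replicates and much less between times. The Pearson correlation of log2 fold across the 3972 regions, which are not independent replicates, was 0.66 between the 0h libraries and 0.43 between the 2h libraries. Between times it ranged from 0.23 to 0.27 over the 4 pairs of libraries. Pairs with the same replicate number had 0.26 and 0.27, and pairs with swapped numbers had 0.26 and 0.23.

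Summits were placed more sharply at 0h. The summits of the 0h replicates lay a median of 53 bp apart in kept regions, and those of the 2h replicates lay 118 bp apart. Between times the medians were 118 and 94 bp for libraries with the same replicate number and 102.5 and 120.5 bp with the numbers swapped. The distance between times was thus no larger than that between the 2h replicates for 3 of the 4 pairs, the fourth exceeding it by a few bp.

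Summit position was then tested per region with limma, and 44 of the 3972 kept regions passed (1.11%). Of these calls, 0 passed with a replicate block and 0 among the 3036 regions with exactly 1 peak in each library. With any 1 library left out 0 passed as well, in fits with 1 residual degree of freedom in which between 162 and 510 summits moved to higher coordinates at an unadjusted p below 0.05. At an unadjusted p below 0.05, 245 summits moved to higher and 239 to lower coordinates in the full comparison. The largest shifts, of 7884 and 3650 bp, were in regions assigned to Gm10719 and Gm10722. Both lay at the start of chromosome 9, a stretch known for satellite repeats, and whether reads were placed uniquely there was not tested. The third was 3047 bp from a TSS of Bcl9l, a cofactor of beta-catenin, where the summit moved by 2170 bp between neighbouring peaks of 1 merged region, from 2629 and 2549 bp to 495 and 342 bp from the region's start (limma adjusted p = 0.0229). Relative to the nearest protein-coding TSS, the median summit of the 1809 kept regions within 1 kb of such a TSS lay 43 and 52 bp upstream at 0h and 30 and 37 bp upstream at 2h.

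Peaks were wider at 2h across kept regions. The median width was 491 and 581 bp in the 0h libraries and 803 and 812 bp in the 2h libraries. The 2h peak was the wider in 67.1% to 78.8% of regions over the 4 pairs of libraries between times. Kept promoters went from 470 and 542 bp to 834 and 845 bp, and kept distal regions from 510 and 626 bp to 768 and 786 bp. Gained regions at 2h had median peaks of 478 and 511 bp, and lost regions at 0h of 367 and 422 bp. Once each library was centred on its median, limma called 0 regions in width (0%), with 299 wider and 330 narrower at 2h at an unadjusted p below 0.05. This balance is set by the centring: without it limma also called 0, but 851 were wider and 65 narrower at an unadjusted p below 0.05.

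**Figure D4:**
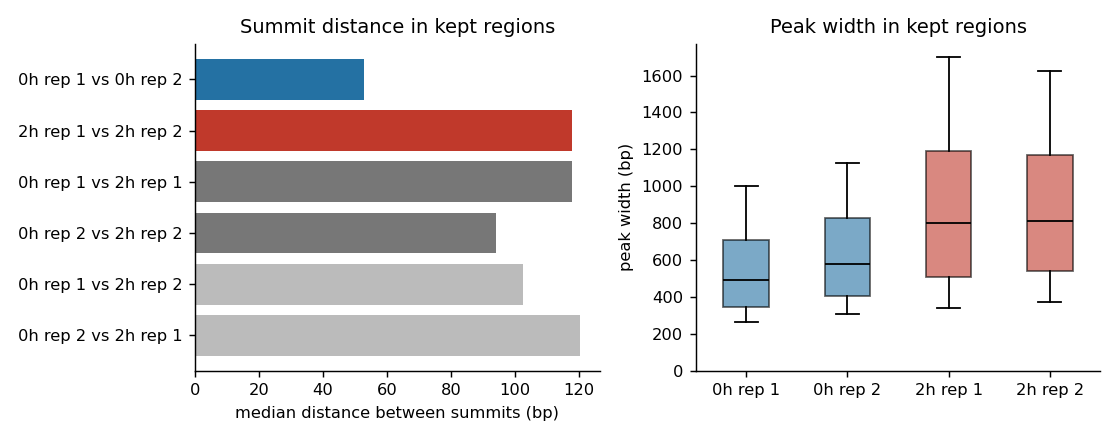
Left, median distance in bp between the summits of 2 libraries in kept regions, for replicates of 0h (53 bp), replicates of 2h (118 bp) and the 4 pairs between times (94 to 120.5 bp). Right, peak width in bp per library over kept regions, with the median (line), quartiles (box) and 10th to 90th percentiles (whiskers); the medians were 491 and 581 bp at 0h and 803 and 812 bp at 2h.

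The earlier times showed when gained regions were first called. At 30m, 38.7% and 20.3% of gained regions had an IKZF1 peak in replicates 1 and 2, and at 1h 63.3% and 74.6% did. Over all merged regions the shares were 38.3% and 22.9% at 30m and 51.5% and 58.7% at 1h. Gained regions thus lay near the share of all regions at 30m and above it in both 1h libraries. In all, 1560 of the 2945 gained regions (53%) were called in both 1h libraries, and 360 (12.2%) in none of the 4 libraries at 30m and 1h. These joint counts were not made over all merged regions, so no background share stands beside them.

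Lost regions were called at the earlier times less often than all merged regions. Their shares were 19.7% and 8.65% at 30m and 24.4% and 30.2% at 1h. Of the 890, 459 (51.6%) had no peak in any of these 4 libraries, a count that was not made over all merged regions. Kept regions had shares of 87.4% and 63.5% at 30m and of 95.3% and 95.8% at 1h. The lists at 30m held 9181 and 5373 peaks and those at 1h 12447 and 14874, so the shares were compared again with all 4 lists reduced to 5373 peaks. Lost regions then had 8.09% and 8.65% at 30m and 4.49% and 5.17% at 1h, a direction opposite to that in the full lists. Gained regions had 19.4% and 20.3% at 30m and 24.2% and 28.3% at 1h, and kept regions had 72% and 63.5% and then 71.1% and 67.2%. The mean shares at 1h were 26.2% in gained, 4.83% in lost and 69.2% in kept regions. Of all merged regions 25.5% and 26.1% were called at 1h, so gained regions no longer lay above that share in both libraries.

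CHD4 peaks were most frequent in kept regions and least frequent in lost regions after induction. In gained regions the share with a CHD4 peak was 8.46% and 25.5% at 0h, 19.5% and 15.8% at 30m, 31.3% and 29.6% at 1h and 28% and 52.7% at 2h. Both 2h values lay above both 0h values. Over all merged regions the share was 11.4% and 28.2% at 0h and 19.7% and 40.2% at 2h, so part of the rise was general. In lost regions it was 10% and 29.6% at 0h, 6.4% and 2.70% at 30m, 5.06% and 3.71% at 1h and 3.26% and 11.1% at 2h. The 0h and 2h values overlapped. In kept regions it was 32.2% and 57.9% at 0h and 40.5% and 70.1% at 2h. Replicates of 1 time differed widely, and the CHD4 lists held from 2488 to 9593 peaks.

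The relation of these shares to time was tested over 8 libraries with Spearman's rho and its exact permutation p (two-sided), adjusted over 6 measures. In gained regions rho was 0.78 (exact p = 0.0349, adjusted p = 0.0698), in lost regions -0.34 (exact p = 0.422, adjusted p = 0.422) and in kept regions 0.44 (exact p = 0.3, adjusted p = 0.36). Pearson's r was 0.76, -0.42 and 0.38, with exact permutation p of 0.023, 0.335 and 0.353 (0.053, 0.353 and 0.353 once adjusted), and without the 2h libraries it was 0.69, -0.68 and 0.41. With CHD4 lists of equal size, rho was 0.93 in gained regions (exact permutation, adjusted p = 0.00952), -0.76 in lost regions (adjusted p = 0.0467) and -0.54 in kept regions (adjusted p = 0.19). The share in gained minus that in kept regions had a rho of 0.73 (exact permutation p = 0.0548, or 0.0821 adjusted) and an r of 0.82 (exact permutation p = 0.0147, or 0.053 adjusted), which was 0.41 without the 2h libraries. With lists of equal size its rho was 0.88 (exact permutation, adjusted p = 0.0155).

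CHD4 was more frequent at distal than at promoter regions, in the gained class as over all merged regions. At 2h, 32.7% and 63.8% of distal gained regions had a CHD4 peak, against 23.4% and 41.8% of gained promoters. At 0h the shares were 11.4% and 34.4% against 5.62% and 16.8%. Over all merged regions they were 20.5% and 43.9% against 18.8% and 35.7% at 2h, and 14.9% and 34.6% against 6.95% and 20.2% at 0h. A CHD4 peak in both 2h and neither 0h library was seen in 249 gained (8.46%), 221 kept (5.56%) and 2 lost regions (0.225%), beside 4.29% of all merged regions. The reverse was seen in 7 gained (0.238%), 81 kept (2.04%) and 37 lost regions (4.16%), beside 1.18% of all merged regions.

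H3K27ac calls became fewer in lost regions with time. The share of lost regions with an H3K27ac peak was 73.9% and 70.2% at 0h, 69.7% and 58.4% at 30m, 58.8% and 47.9% at 1h and 50.7% and 48.5% at 2h. Both 2h values lay below both 0h values. Spearman's rho with time was -0.83 (exact permutation p = 0.0198, adjusted over 9 measures p = 0.0446), and Pearson's r was -0.85 (exact permutation p = 0.00952, or 0.0518 adjusted), also -0.85 without the 2h libraries. An H3K27ac peak in both 0h and neither 2h library was seen in 138 of the 890 lost regions (15.5%), beside 2.75% of all merged regions, and the reverse in 0.

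In kept regions the H3K27ac share was 96.6% and 96.3% at 0h and 94.2% and 93.4% at 2h, a smaller decline with the same rho of -0.83 and the same p. Its r was -0.81 (exact permutation p = 0.0206, or 0.0518 adjusted), and -0.66 without the 2h libraries. In gained regions it was 88% and 85.8% at 0h and 87.6% and 86.8% at 2h, with a rho of -0.20 (exact permutation p = 0.672, also after adjustment). Of the 2945 gained regions, 2419 (82.1%) were called for H3K27ac in all 4 libraries of 0h and 2h, beside 72.9% of all merged regions. Most merged regions carried the mark: over all of them the share was 83.1% and 80.9% at 0h and 79.8% and 78.2% at 2h. The 3 tests of call shares were added after the data were seen, and the calls were lost in 7 of 8 leave-one-out fits for lost regions (all but that without 1h replicate 2) and in all 8 for kept regions. With 7 libraries rho ranged from -0.92 to -0.75 for lost and from -0.90 to -0.77 for kept regions.

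By the rank of H3K27ac fold, lost regions moved away from kept regions and gained regions moved towards them. It was computed over the H3K27ac regions called in all 8 libraries, as a percentile in each library. Lost regions had a mean percentile of 56.5 and 55.3 at 0h, 44.2 and 45.5 at 30m, 41.9 and 42.7 at 1h and 42.4 and 41.9 at 2h, over the 416 that overlapped such a region. Most of the decline was present at 30m. Kept regions went from 68.3 and 67.9 at 0h to 64.0 and 63.6 at 2h, and gained regions from 59.97 and 59.1 to 62.8 and 62.7.

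The difference of gained minus kept regions was -8.30 and -8.81 percentile points at 0h and -1.23 and -0.86 at 2h. Its rho with time was 0.98 (exact permutation p = 0.000794, or 0.00476 adjusted over 6 measures) and its r 0.81 (exact permutation p = 0.029, or 0.053 adjusted), and 0.94 without the 2h libraries. The difference of lost minus kept regions was -11.8 and -12.6 at 0h and -21.6 and -21.7 at 2h. Its rho was -0.88 (exact permutation p = 0.0103, or 0.031 adjusted) and its r -0.78 (exact permutation p = 0.0353, or 0.053 adjusted), and -0.92 without the 2h libraries. The lost difference lost its call without 0h replicate 1 or 2 or 30m replicate 1 or 2 (rho = -0.83 each) and without 1h replicate 2 (rho = -0.86). Ranked over all peaks of a list instead, the lost difference had a rho of -0.05 (exact permutation, adjusted p = 0.946). That ranking used the lost regions with a peak in the given list, and the main ranking used the 416 named above. Both leave out lost regions without a peak, and the cause of the change was not tested.

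**Figure D5:**
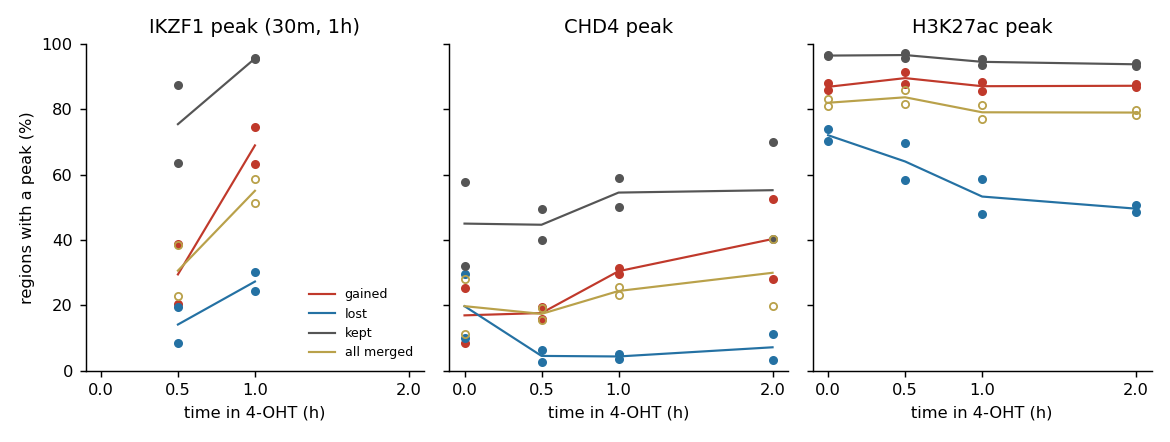
Share of gained, lost, kept and all merged regions (percent) with an IKZF1, CHD4 or H3K27ac peak against time in 4-OHT (h); points are libraries and lines join the means of 2 replicates. IKZF1 is shown at 30m and 1h only, since 0h and 2h defined the classes; the H3K27ac share of lost regions went from 73.9% and 70.2% at 0h to 50.7% and 48.5% at 2h.

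Genes were assigned to a class when a region lay within 20 kb of one of their TSSs. Of 21911 protein-coding genes, 15.4% had a gained, 3.95% a lost and 19.4% a kept region. Among the 9720 genes with H3K27ac at the TSS in both 0h libraries these shares were 28.6%, 6.11% and 35.5%. Most genes of the lists below are of that kind, apart from the Notch list (6 of 12) and the markers of other cell types (2 of 19), and a region may count for neighbouring genes.

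Genes of pre-B cell receptor and B cell receptor signalling had regions of all 3 classes. Of 23 genes, 18 had a kept, 11 a gained and 4 a lost region. Igll1 and Vpreb1, which encode the surrogate light chain of the pre-B cell receptor, shared 2 kept regions and 1 lost region on chromosome 16. The kept region 250 bp from a TSS of Igll1 had folds of 7.25 and 6.16 at 0h and of 5.86 and 13.4 at 2h. The lost region, at chr16:16866058-16866522, had folds of 4.53 and 4.14 at 0h. Gained regions lay at the promoters of Blk, a Src-family kinase, with folds of 6.49 and 6.35, and of Cd22, an inhibitory co-receptor, with folds of 6.75 and 4.98.

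Of 12 genes of the IL-7 receptor and STAT5 group, 8 had a kept, 2 a gained and 3 a lost region. A kept region between Stat5a and Stat5b, the transcription factors activated by IL-7, had folds of 8.62 and 9.83 at 0h and of 3.37 and 4.16 at 2h. It fell by 1.23 ± 0.30 on the log2 scale (SE; limma adjusted p = 0.0446). The region at the promoter of Il7r, the receptor chain itself, had folds of 8.62 and 9.34 at 0h and of 3.85 and 6.20 at 2h. It was not called by limma, and 1 of the 11 kept regions of this list fell. Lost regions lay near Jak1, Socs1 and Socs3, the last pair feedback inhibitors of cytokine signalling.

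Genes of proliferation were counted in 3 lists. In the mitosis list 5 of 17 genes had a gained region (Cdk1, Aurkb, Bub1, Mad2l1 and Top2a), 6 a kept and 0 a lost one. In the DNA replication list 10 of 18 (55.6%) had a gained region, 8 a kept and 2 (11.1%) a lost one. A gained region at the start of Mcm2, a helicase subunit, had folds of 7.01 and 5.12. In the G1 list 5 of 19 had a gained region, 7 a kept and 0 a lost region. Myc, the growth regulator, had a kept region at its promoter with folds of 7.33 and 9.09 at 0h and of 5.97 and 8.32 at 2h, and a gained region 1472 bp away with folds of 4.95 and 5.09.

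Among 31 transcription factors of the B lineage, 20 had a kept, 16 a gained and 7 a lost region. Gained regions lay at the promoters of Foxo1, with folds of 5.18 and 4.53, and of Runx1, with 4.94 and 7.68. At Ebf1, which specifies the B lineage, kept, gained and lost regions all lay within 20 kb of a TSS. An intronic region 11245 bp from a TSS of Irf8, a regulator of B and myeloid cells, was the strongest lost region of the list, with folds of 9.29 and 12.6 at 0h. The Ikzf1 gene itself had 1 kept, 1 gained and 1 lost region, each in an intron.

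Adhesion genes included several kept regions that fell. Of 22 genes, 12 had a kept, 4 a gained and 5 a lost region, and 3 of their 18 kept regions fell, beside 3.22% of all kept regions. The promoter of Itgb1, the shared beta chain of many integrins, had folds of 15.5 and 16.4 at 0h and of 3.21 and 4.8 at 2h, a fall by 1.96 ± 0.29 on the log2 scale (SE; limma adjusted p = 0.0058). Regions near Itga5 and Itgal, which encode integrin alpha chains, fell by 1.72 and 1.37. Over all lists 235 kept regions lay near list genes, of which 2 rose and 8 fell. The other rise was at the promoter of Mcl1, an anti-apoptotic BCL2-family protein, with folds of 2.69 and 3.82 at 0h and of 7.01 and 8.04 at 2h (limma adjusted p = 0.0408). A list of 17 fast-repressed genes that the study chose with samples of the same system is not independent of these data: 13 had a kept, 5 a gained and 4 a lost region, and 3 of its 22 kept regions fell. Within 1 kb of a TSS 7 had a kept, 0 a gained and 0 a lost region, beside 9.18%, 6.77% and 0.726% of all protein-coding genes. Within 50 kb 11 had a gained region, beside 25.1% of all protein-coding genes.

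The remaining lists had these counts. Gained, lost and kept regions lay near 4, 1 and 4 of 10 V(D)J recombination genes, 4, 1 and 4 of 13 NuRD subunit genes and 7, 0 and 7 of 12 coactivator genes. They lay near 6, 0 and 5 of 12 BCL2-family genes, 5, 2 and 8 of 17 genes of glucose use and 5, 0 and 10 of 13 immediate early genes. They lay near 3, 1 and 6 of 12 Notch pathway genes, 6, 4 and 5 of 16 sterol synthesis genes and 7, 2 and 8 of 22 ribosomal protein genes. Pre-B markers had 5, 4 and 10 of 11, and markers of other cell types 2, 3 and 5 of 19. No call on any list as a whole was made.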

How the data were processed

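Chromatin was fixed with disuccinimidyl glutarate and formaldehyde, and paired-end reads were aligned to mm10 with Bowtie2 2.4.2, marked for duplicates with Picard 2.23.7 and called with MACS2 2.2.7.1, per the labels and the study's methods. These settings are stated for 0h, 1h and 2h; those for 30m, and the input used for each list, are not given in the sources used here. The deposited lists give, per library, fold enrichment (a ratio of pileup plus 1 over local background plus 1), significance as −log10 of p-value and q-value, and, in IKZF1 and H3K27ac lists, the summit offset. Column 5 was not used, nor was any library from cells lacking the tagged protein.

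Peaks were merged by overlap of 1 bp. The highest peak of a library stood for it in a region. Regions were annotated with GENCODE M21 on GRCm38, the same assembly as mm10, and sequence was read from the GRCm38 genome of RefSeq with samtools 1.23.1. Fits used limma 3.58.1 in R 4.3.3 (eBayes, with trend for fold), and permutations numpy 2.4.6 in Python 3.11.15. Data were simulated for the 3972 kept regions with 200 changed, and replicate spreads were drawn at random from those observed across regions. A tie of spread to fold was therefore not kept, and the rates may differ in the real data. The fold fit called 49% of changes of 2 on the log2 scale, 2% of changes of 1, and 3 unchanged regions. The width and summit fits called 0 of theirs, so few calls there say little.

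Fragment pileups were recovered by matching fold and p to whole fragments (a tolerance of 0.01 in −log10 p) in 100% of the peaks tested in each IKZF1 library, which gave the background levels quoted. Read totals are not given in the files. The labels do not say that replicates were separate cultures, so p-values measure only the spread between these samples. Replicate numbers carry no stated batch. Differences between replicates correlated by 0.04, 0.01 and 0.02 between times for fold, summit and width over 2 pairs.

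Named regions were the 10 gained and lost with the highest lower fold rank in their 2 lists, the 10 kept with the highest mean rank, the 5 largest called rises and falls, the 3 largest called summit shifts, and regions near listed genes. The regions, rules and lists were chosen with earlier results of these data known. Gene lists were written by hand from textbook knowledge, except the fast-repressed genes.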

Additional observations from a re-analysis of the deposited data

Results flagged for a closer look

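The difference in mean H3K27ac percentile between gained and kept regions changed with time (rho = 0.976 over 8 libraries), and so did that between lost and kept regions (rho = -0.878). Both were picked out because a test of the difference between classes of regions passed after adjustment over 6 measures (exact permutation, adjusted p = 0.00476 and 0.031). The mean difference of gained minus kept regions was -8.56 percentile points at 0h and -1.04 at 2h, and that of lost minus kept regions was -12.2 and -21.6. Without single libraries, the first kept its call in 8 of 8 fits and the second lost it in 5 of 8.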

How the results depend on the processing

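Replicate numbers were not shown to pair the libraries. With a replicate block, kept regions called for fold became 86 higher and 284 lower, summit shifts fell to 0 and width calls were 2, while the CHD4 and H3K27ac trends kept their side of the threshold. With lists of equal size, 1203 regions were gained, 1471 lost and 2569 kept, 73% of lost regions were distal, and 83.4%, 47.1% and 98.1% of gained, lost and kept regions were called at 1h. At a −log10 q of at least 3, gained regions were 47.2% distal, and 77.2%, 34.6% and 96.9% were called at 1h. With 30m and 1h lists of equal size these were 26.2%, 4.83% and 69.2%. Distal shares were 35.7%, 64.3% and 38.1% with promoters within 3 kb, and 77% of lost regions were distal with an overlap of 50%. With windows of 100 bp each side, the excess of core words was 0.49 in gained, 1.72 in lost, 1.46 in kept at 0h and 0.93 in kept at 2h. With CHD4 lists of equal size, rho was 0.93 in gained, -0.76 in lost, -0.54 in kept (a reversed sign) and 0.88 in gained minus kept, past the threshold in all but kept. With ranks over all H3K27ac peaks, rho of lost minus kept was -0.049. Fold calls were 0 and 0 (quantile), 333 and 513 (recovered pileup), 38 and 145 (the same without centring, chosen after seeing the data), 7 and 93 (no trend) and 6 and 57 (exactly 1 peak), where summit shifts were 0 and width calls 1. The cause of these changes was not tested.

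Leaving out 1 library at a time gave 3636 to 7195 gained, 1264 to 2132 lost and 4294 to 5281 kept regions, of which 46.8% to 53.1%, 72.9% to 76.2% and 48% to 52.4% were distal and 44.2% to 74.1%, 23.2% to 45.2% and 92.5% to 94.2% were called at 1h. The rho of CHD4 in gained minus kept regions ranged from 0.61 to 0.90 (past the threshold without 0h replicate 1), and that of the H3K27ac rank in lost minus kept regions from -0.97 to -0.83. Fold calls ranged from 0 to 38 higher and from 0 to 133 lower, summit shifts were 0 and width calls 0 to 1. A merge within 200 bp gave 3013 gained, 848 lost and 4022 kept regions, and a fold of at least 3 gave 2664, 914 and 3634. Gene counts moved with the distance limit: genes with a gained, lost or kept region numbered 1484, 159 and 2011 within 1 kb and 5492, 1712 and 6649 within 50 kb. Read depth is not in the files, and the self-tests recovered 49% of changes of 2 on the log2 scale in fold but near 0 of smaller ones or of those in width and summit, so a region without a call may have changed.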
